A study of Mus musculus with 6 samples.

Results

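The genes described here are the Zfp genes, the mouse genes named as zinc finger proteins: the 225 of 27179 genes in the count table whose symbol begins with Zfp and a number and whose counts summed to at least 50 over 6 libraries. They were chosen by their summed counts, so their overall abundance is not a finding. Of 399 genes with such a symbol, 317 had at least 1 count, 92 of them with sums of 1 to 49, and 82 had none. Just inside the limit were Zfp609 with 51 summed counts, Zfp365 with 52 and Zfp973 with 55, and just outside were Zfp322a with 49, Zfp3 with 46 and Zfp943 with 46.

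RNA came from stromal cells of the bone marrow of Cxcl12-dsred/+ mice of the C57BL/6 strain at P2, which carry a red fluorescent reporter in Cxcl12, the gene of a niche chemokine. The cells were sorted as DsRed+ and as negative for CD45 and Ter119, which mark blood and erythroid cells, and for CD31, which marks endothelium. All 3 groups share this genotype, age and sort: antim6A_bound, the RNA eluted from beads with an antibody to N6-methyladenosine (m6A), then IgG_bound, the RNA eluted from beads with IgG, and Input, a portion of the poly(A) RNA kept before incubation. Each group has 2 libraries, called anti-m6A, IgG and Input libraries 1 and 2 below. The comparison of anti-m6A with IgG and Input asks which transcripts the antibody retained. Whether the libraries of a group came from separate mice or pull-downs is not stated in the labels. The p-values below therefore reflect only how far these libraries differ, which can be technical variation.

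Most Zfp proteins are built of repeated C2H2 zinc fingers, in which a pair of cysteines and a pair of histidines hold a zinc ion and each finger reads a few bases of DNA. Many also carry a KRAB domain, which binds the corepressor Trim28 and through it the histone methyltransferase Setdb1 and HP1 proteins, and silences retroelements and imprinted loci. A smaller set has other roles, among them the CCCH fingers of the Zfp36 proteins, which bind AU-rich elements of mRNA and promote its decay.

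Neighbouring C2H2 fingers are joined by a short conserved linker, read as TGEKP or TGERP, and its coding DNA often contains AAACC, 1 of the forms of the DRACH consensus around methylated adenosines. The coding stretch around the first such linker is shown for the 4 Zfp genes with most matching linkers among those above IgG and Input alike in anti-m6A, because this linker recurs through the family. Each is 30 bases of a GENCODE M21 coding sequence on GRCm38, sense strand, with AAACC in capitals.

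Zfp950: attcatactggagagAAACCctatggatgt

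Zfp420: attcacactggtgagAAACCctatgaatgt

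Zfp617: aatcacactggagagAAACCctatgtgtgt

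Zfp971: acacatacaggagagAAACCctatgaatgt

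Zfp950 lies on chromosome 19, Zfp420 on 7, Zfp617 on 8 and Zfp971 on 2. In Zfp950, 16 of 16 linkers held the match. In Zfp420, 11 of 15 linkers held it, and in Zfp617 and in Zfp971 10 of 11 each. Among the 222 Zfp genes matched to GENCODE M21, 159 had at least 1 linker, and 523 of their 939 linkers (55.7%) contained AAACC within the 17 bases that start at the linker. Of all in-frame coding windows of 17 bases, 1.39% contained it. The linkers were picked by their amino acids, and lysine and proline coded as AAA and CCN always give AAACC. The 2 shares are therefore not a like comparison and show no enrichment of a methylation motif. Only the sense strand was searched, and a match is not a methylated site.

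The libraries held 6102070 and 5133237 counts in anti-m6A, 2487148 and 1278735 in IgG, and 7125578 and 9493391 in Input. At this depth 3 counts stand for 0.621 and 0.755 CPM (the usual counts-per-library scale, with TMM scaling of library sizes) in anti-m6A, 1.16 and 1.94 in IgG and 0.354 and 0.290 in Input. The summed CPM of 8 stromal niche markers was 3291 and 3406 in anti-m6A, 2810 and 2731 in IgG, and 6463 and 6368 in Input, and all 8 were counted in every anti-m6A and Input library but only 5 and 4 of them in IgG. Of 9 hepatocyte markers, whose defining members include Alb, Apoa1 and Ttr, 8 were counted in each IgG library, and their summed CPM was 1127 and 1195 in anti-m6A, 22072 and 20502 in IgG, and 109 and 1743 in Input, with Cps1 at 0. The summed CPM of 7 blood markers was 28.1 and 36.7 in anti-m6A, 1765 and 1227 in IgG, and 25.1 and 143 in Input, with Ptprc, Elane and Cd79a at 0. Of the 7, only 1 was counted in each anti-m6A library, 2 in each IgG library, and 1 and 2 in the Input libraries. Erythroid markers, of which 5 of 6 were in the table, had a summed CPM of 1037 and 1207 in anti-m6A, 3612 and 3523 in IgG, and 454 and 650 in Input. Endothelial markers were at 0 in IgG and at most 61.6 CPM elsewhere. The part of these other RNAs in the results below was not tested.

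Most Zfp genes were counted on anti-m6A beads (207 in both libraries), fewer in Input (167 in both) and few on IgG beads (23 in both). The anti-m6A libraries held 213 and 211 of the 225 genes, the IgG libraries 32 and 24, and the Input libraries 172 and 189. Both IgG libraries were at 0 for 192 Zfp genes (85.3%), compared with 73.6% of all 11167 genes with at least 50 summed counts. Both Input libraries were at 0 for 31 Zfp genes (13.8%), compared with 1061 of those 11167 genes, and both anti-m6A libraries for 8 (3.56%), compared with 4.89%. The most common pattern, shared by 127 Zfp genes, was counts in both anti-m6A and both Input libraries with 0 in IgG. A further 27 were counted in both libraries of anti-m6A but nowhere else, and 8 had counts in Input alone. In bulk RNA fewer cells of a type and less RNA per cell cannot be told apart.

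**Figure D1:**
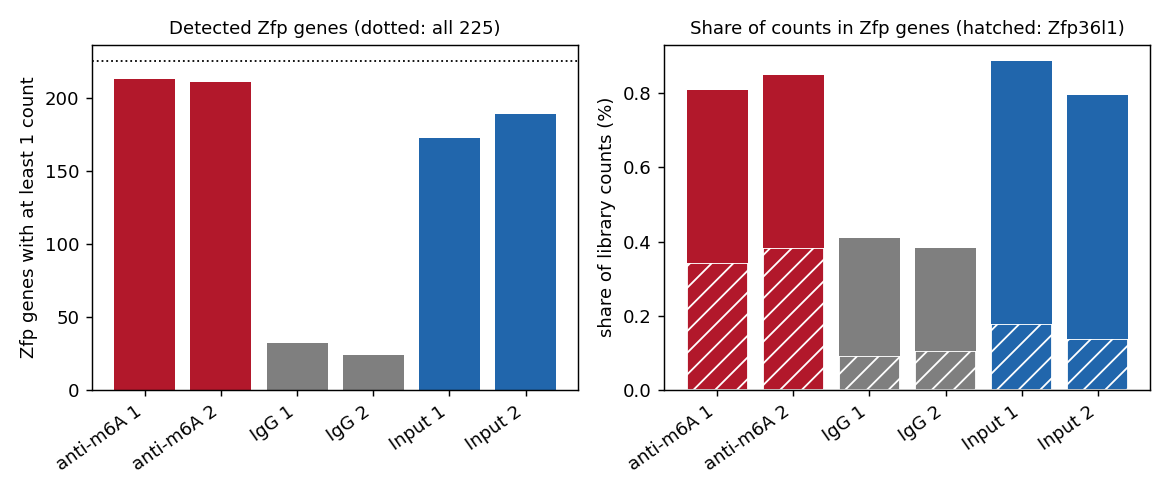
Left, number of the 225 Zfp genes with at least 1 count in each library; right, percent of each library's counts in Zfp genes, with the hatched part from Zfp36l1. The anti-m6A libraries held 213 and 211 Zfp genes, the IgG libraries 32 and 24, and the Input libraries 172 and 189.

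A single gene carried much of the family's counts. Zfp genes took 0.808% and 0.850% of counts in anti-m6A, 0.411% and 0.381% in IgG, and 0.887% and 0.795% in Input. Zfp36l1 alone made 42.5% and 45.1% of that in anti-m6A, 22.1% and 27.1% in IgG, and 20.0% and 17.3% in Input. Without it, the other 224 genes took 0.465% and 0.467% of the library in anti-m6A, 0.320% and 0.278% in IgG, and 0.710% and 0.657% in Input. The groups did not overlap in this share, with Input highest and IgG lowest. For the shares of anti-m6A library 1, exact 95% binomial intervals ran from 0.801% to 0.815% for all 225 genes. Without Zfp36l1 they ran from 0.459% to 0.470%. These intervals cover no variation between libraries. They treat each read as a separate draw, and PCR copies were not collapsed to molecules, so they can be too narrow even for counting error.

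Of the 225 genes, 218 passed the filter on low counts and were tested beside 11281 genes in all, and the filter keeps a gene that is high in only 1 group. The 7 untested were Zfp365, Zfp354a, Zfp389, Zfp758, Zfp984, Zfp932 and Zfp446. Against IgG, 171 Zfp genes rose in anti-m6A and 9 fell at an edgeR adjusted p under 0.05, which is 78.4% and 4.13%, where 73.1 percent of all genes tested were higher and 8.31 percent lower. Against Input, 58 were higher in anti-m6A and 52 lower, which is 26.6% and 23.9%, where 28.0 percent of all genes tested were higher and 20.5 percent lower. For IgG against Input, 8 were higher in IgG and 144 lower, which is 3.67% and 66.1%, where 9.89 percent of all genes tested were higher and 61.5 percent lower. Above IgG and Input alike in anti-m6A were 53 (24.3%), where the share of all genes tested was 23.6 percent. The shares higher than IgG, Input or both lie near the background and are not a result about the Zfp genes. The share below IgG in anti-m6A (4.13% beside 8.31 percent) and the share above Input in IgG (3.67% beside 9.89 percent) were smaller than the background, on 9 and 8 genes, and these differences were not tested. With DESeq2's size factors, which shift the median log2 change of all genes against Input by -0.40, 52 Zfp genes were higher and 61 lower than Input, and of all genes tested 2711 were higher and 2982 lower, in place of 3156 and 2308. The 3 comparisons share libraries and are not independent of each other.

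Zeros stood behind many of these calls. Of the 171 genes that exceeded IgG in anti-m6A, 157 were at 0 in both IgG libraries, and of the 58 higher than in Input, 31 were at 0 in both Input libraries and 20 had counts in both. Of the 144 lower in IgG than in Input, 130 were at 0 in both IgG libraries. With groups at 0 set to the limit of 3 counts per library, the median log2 change of the 218 genes was 2.67 for anti-m6A against IgG and -2.76 for IgG against Input, beside 2.88 and -2.87 over all genes tested. For anti-m6A against Input the fitted median was 0.07, beside 0.18 over all genes tested. Both anti-m6A libraries lay above both IgG libraries for 192 of the 218 (background 82.2 percent) and below them for 10 (background 10.8 percent). Against Input, anti-m6A lay above without overlap for 95 (background 44.3 percent), below for 82 (background 34.4 percent), and overlapped for 41. IgG lay above Input without overlap for 11 (background 12.3 percent) and below for 155 (background 66.7 percent).

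The Input libraries differed more from each other than the anti-m6A libraries did. They were over 4-fold apart for 21 of 167 Zfp genes counted in both, and the anti-m6A libraries for 5 of 207. Over Zfp genes with 20 counts or more summed over a pair, the median absolute log2 ratio between the libraries of a group was 0.216 in anti-m6A (180 genes), 0.477 in IgG (18 genes) and 0.921 in Input (173 genes). Zfp945 had 131 and 2067 counts in Input, and Zfp688 had 0 and 830. Over all genes tested, calls against Input became fewer without an anti-m6A library and more numerous without an Input library. Losses of that kind are not particular to Zfp genes. The fit takes 1 spread per gene over all 3 groups, which are unlike in spread. Without an anti-m6A library, the wider Input pair weighs more in it. A call lost in this way does not show by itself that the anti-m6A libraries of that gene disagree. Whichever 1 of the 6 libraries was left out, 132 of the 171 higher and 5 of the 9 lower than IgG were still called, but only 28 of the 58 higher and 4 of the 52 lower than Input. Of the 53 above both groups, only Zfp286 and Zfp36l1, 2 in all, were still called. Those 4, Zfp335, Zfp422, Zfp623 and Zfp948, were singled out after their values were seen.

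**Figure D2:**
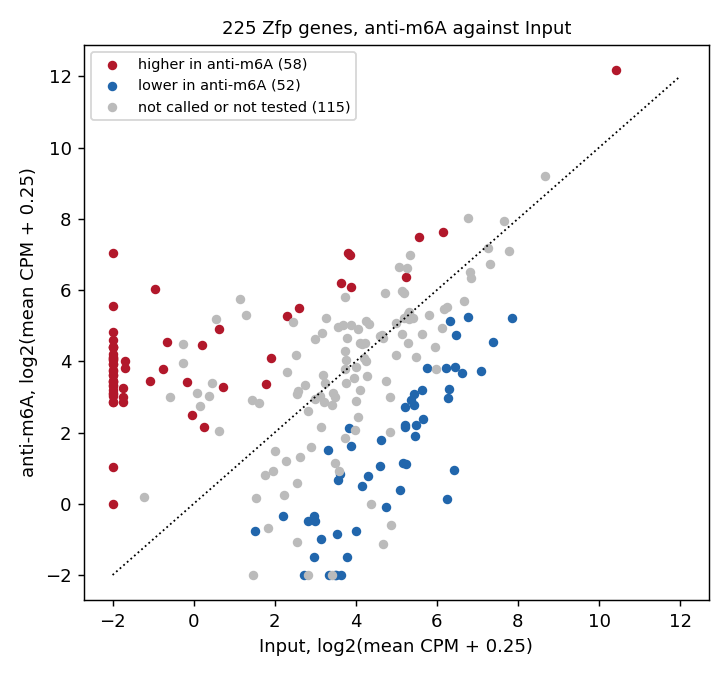
Mean of the 2 anti-m6A libraries (vertical) against mean of the 2 Input libraries (horizontal) for the 225 Zfp genes, both as log2(CPM + 0.25), with the dotted line at equal values. Red points are the 58 genes called higher in anti-m6A, blue the 52 called lower; the column of points at the left edge has no Input count, and Zfp36l1 stands alone at the top right.

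How often a Zfp gene was called against Input moved with its summed counts. Among the 69 tested genes with sums of 50 to 199, 38 were higher in anti-m6A (55.1%) and 9 lower, and 26 of the 69 had no Input count. In that range 50.2% of all genes tested were higher. Among the 149 with sums of at least 200, 20 were higher (13.4%) and 43 lower (28.9%), beside 20.2% and 23.1% of all genes tested in that range. The balance thus turned from higher to lower between weakly and well counted Zfp genes, and the same turn was seen in all genes tested. The ranges are cut on the sums that the member rule used, which include the anti-m6A and Input counts compared. The turn is therefore a description and not a result about Zfp genes.

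**Figure D3:**
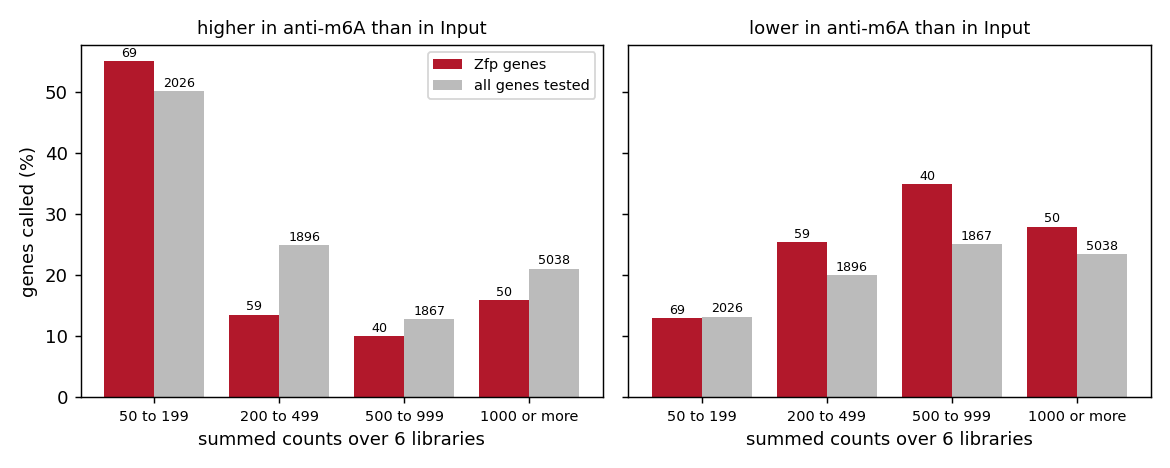
Percent of genes called higher (left) and lower (right) in anti-m6A than in Input by summed counts over 6 libraries, for Zfp genes (red) and all genes tested (grey), with the number of genes above each bar. In the lowest range 55.1% of Zfp genes and 50.2% of all genes tested were higher.

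The CCCH genes showed 3 different patterns. Zfp36l1 (Entrez 12192, chromosome 12, 80107760 to 80113013, GRCm38), which binds AU-rich elements and recruits deadenylases, had counts of 20949 and 19666 in anti-m6A, 2261 and 1324 in IgG, and 12627 and 13100 in Input. That is 4641 ± 432 CPM in anti-m6A, 864 ± 11.3 CPM in IgG and 1379 ± 158 CPM in Input (SD, n = 2 each). All 3 groups were apart, with anti-m6A highest. Its log2 change was 2.42 ± 0.16 against IgG (SE; edgeR adjusted p = 0.000552) and 1.75 ± 0.15 against Input (edgeR adjusted p = 0.00716), and -0.67 ± 0.15 for IgG against Input (edgeR adjusted p = 0.00998). All 3 calls were made under each of 13 alternatives, although 56.9% of its 50-base stretches also occur in other genes, most often Gm26669, so that its reads could be split. Per kilobase of exon its level was 1552 CPM in anti-m6A, 289 CPM in IgG and 461 CPM in Input, and no other Zfp gene reached that Input level per kilobase.

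Zfp36, or tristetraprolin, had counts of 396 and 316 in anti-m6A, 451 and 296 in IgG, and 819 and 1371 in Input. As CPM it was lowest in anti-m6A, at 81.9 and 79.5, and highest in IgG, at 174 and 191, with 96.7 and 133 in Input. Its log2 change against IgG was -1.18 ± 0.26 (edgeR adjusted p = 0.00827), a call lost without anti-m6A library 1 (edgeR adjusted p = 0.0949) or 2 (edgeR adjusted p = 0.116), within a range of 4.91e-05 to 0.116 over 13 alternatives. Against Input the change of -0.51 ± 0.25 did not pass (edgeR adjusted p = 0.157). Zfp36l2, the third member, had counts of 91 and 59 in anti-m6A, 0 in IgG, and 202 and 126 in Input. In anti-m6A it was at least 10.9-fold higher than in IgG (edgeR adjusted p = 0.00228), and its anti-m6A level lay within the Input range.

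Among genes of RNA binding, splicing and the ribosome, 9 were tested, of which 6 exceeded IgG in anti-m6A (66.7%, beside 73.1 percent of all genes tested) and 1 was below it (11.1%, beside 8.31 percent), shares near the background. None passed against Input (0 of 9). Zfp106, an RNA-binding protein needed by motor neurons in mice, had counts of 309 and 225 in anti-m6A, 0 in IgG, and 93 and 430 in Input. Zfp326, known in human cells as part of a complex that links splicing to RNA polymerase II, had counts of 482 and 390 in anti-m6A, 0 in IgG, and 133 and 629 in Input. In both genes anti-m6A lay above Input in CPM without overlap, but neither passed (edgeR adjusted p = 0.248 for Zfp106 and 0.19 for Zfp326), and 25.1% of the 50-base stretches of Zfp106 also occur in another gene. Zfp638, a cofactor of adipocyte differentiation, was at 31.7 and 30.7 CPM in anti-m6A, 0 in IgG, and 12.8 and 10.3 CPM in Input. The anti-m6A and Input values did not overlap, yet its log2 change of 1.44 ± 0.42 missed the threshold (edgeR adjusted p = 0.0527). Zfp207, which binds Bub3 at the spindle, had counts of 265 and 193 in anti-m6A, 1 and 0 in IgG, and 1104 and 737 in Input. Zfp598, the ubiquitin ligase of collided ribosomes, had counts of 123 and 112 in anti-m6A, 28 and 2 in IgG, and 450 and 474 in Input, and passed in neither comparison of anti-m6A (edgeR adjusted p = 0.0674 against IgG and 0.404 against Input).

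Zfp622, whose human and yeast counterparts act in 60S ribosome assembly, was the exception that IgG beads retained more. It had counts of 746 and 531 in anti-m6A, 1276 and 776 in IgG, and 1288 and 1579 in Input. As CPM it was 144 ± 14.7 in anti-m6A, 497 ± 6.78 in IgG and 152.5 ± 0.534 in Input (SD, n = 2 each), so that only IgG stood apart. Its log2 change was -1.79 ± 0.19 for anti-m6A against IgG (edgeR adjusted p = 0.00107) and 1.70 ± 0.19 for IgG against Input (edgeR adjusted p = 0.00104).

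Zfp217, a zinc finger protein that binds the m6A writer Mettl3 and limits m6A in mouse embryonic stem cells, was a low transcript. It had counts of 25 and 22 in anti-m6A, 0 in IgG, and 9 and 4 in Input. Anti-m6A was highest, by a log2 change of 2.86 ± 0.61 against Input (edgeR adjusted p = 0.0221) and at least 3.46-fold against IgG (edgeR adjusted p = 0.00484). The call against Input was made under 8 of 12 alternatives. It was lost without anti-m6A library 1 or 2, with the replicate block and in the DESeq2 test (DESeq2 adjusted p = 0.0616).

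Of 8 tested regulators of mesenchymal, adipocyte and skeletal lineages, 7 exceeded IgG in anti-m6A (87.5%, beside 73.1 percent of all genes tested), 2 exceeded Input (25.0%, beside 28.0 percent) and 1 was below Input (12.5%, beside 20.5 percent). Zfp467, which favours adipocyte over osteoblast fate in marrow stroma, differed from the rest. On chromosome 6 (48427692 to 48445992, GRCm38), it had counts of 342 and 233 in anti-m6A, 172 and 48 in IgG, and 2 and 3 in Input. Both bead eluates thus held far more of it than Input. The log2 change against Input was 7.81 ± 0.62 in anti-m6A (edgeR adjusted p = 0.00716) and 7.41 ± 0.61 in IgG (edgeR adjusted p = 0.000582), each called under all 12 alternatives, and anti-m6A against IgG was 0.40 ± 0.44 (edgeR adjusted p = 0.419). Its anti-m6A level of 70.8 and 58.6 CPM overlapped the 66.4 and 31.0 CPM in IgG.

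Zfp423, which commits cells to the preadipocyte lineage, and Zfp521, which opposes it, were both retained on anti-m6A beads and at 0 in IgG. Zfp423 had counts of 195 and 159 in anti-m6A and 414 and 296 in Input, a log2 change of 0.05 ± 0.43 (edgeR adjusted p = 0.935). Zfp521 had counts of 144 and 124 in anti-m6A and 731 and 535 in Input, a log2 change of -1.18 ± 0.40 (edgeR adjusted p = 0.0754). Zfp423 thus lay at its Input level, whereas the Zfp521 anti-m6A libraries lay below both Input libraries without passing the threshold, and the difference between the 2 genes was not tested. Zfp703, a transcriptional repressor, had counts of 8 and 21 in anti-m6A, 0 in IgG, and 370 and 448 in Input. It was lower in anti-m6A than in Input by a log2 change of -3.65 ± 0.74 (edgeR adjusted p = 0.02), a call lost without anti-m6A library 1 (edgeR adjusted p = 0.152) or 2 (edgeR adjusted p = 0.0641), within 1.01e-07 to 0.152 over 12 alternatives. Zfp219, a cofactor of Sox9 in cartilage, had counts of 46 and 42 in anti-m6A, 2 and 1 in IgG, and 30 and 30 in Input. Its log2 change against Input was 1.63 ± 0.38 (edgeR adjusted p = 0.0201), a call made under 6 of 12 alternatives. The call was lost under both other scalings, in the DESeq2 test, with the replicate block, and without anti-m6A library 1 or 2. Zfp516, a driver of brown fat genes, had counts of 28 and 18 in anti-m6A, 0 in IgG, and 169 and 134 in Input (log2 change against Input -1.67 ± 0.49, edgeR adjusted p = 0.0527).

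**Figure D4:**
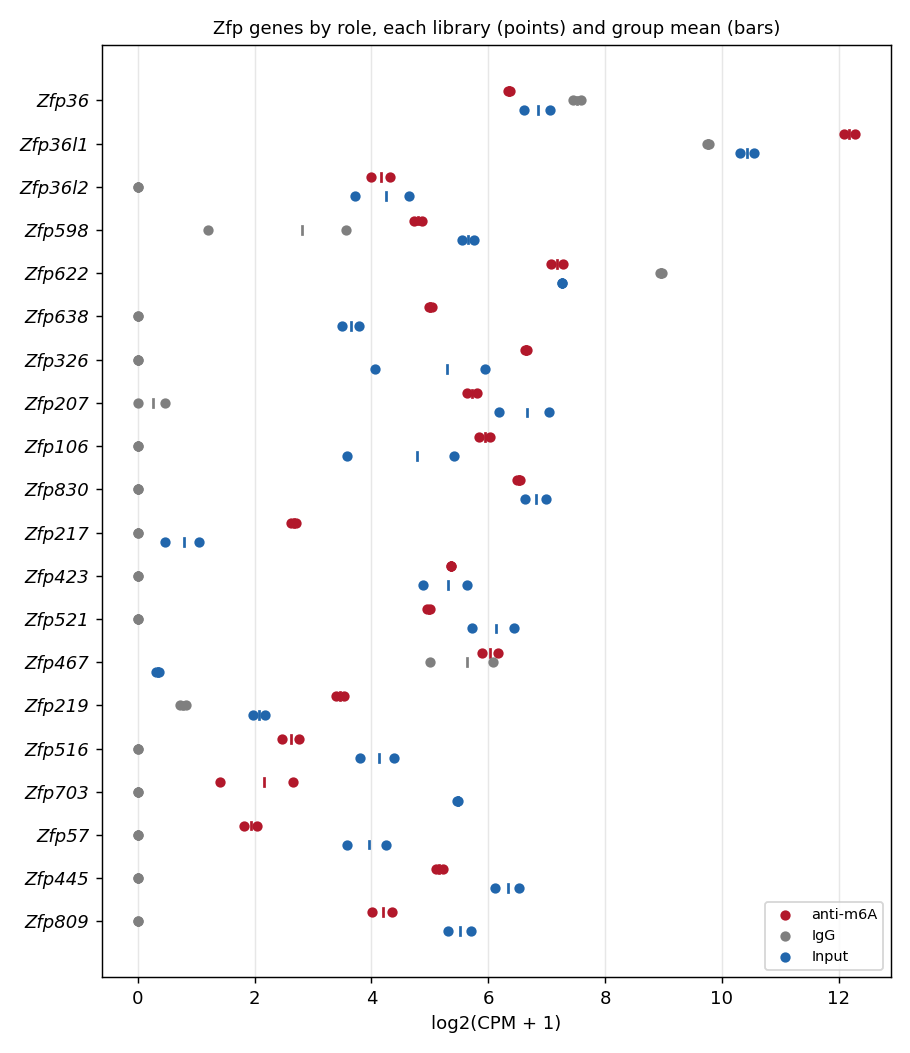
Level of 20 Zfp genes with known roles as log2(CPM + 1), with a point per library and a short bar at the mean of the 2 libraries; anti-m6A is red, IgG grey and Input blue, from top to bottom in each row. Zfp36l1 is highest in anti-m6A, Zfp622 in IgG, Zfp703 in Input, and Zfp467 is near 0 in Input.

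The 5 listed Zfp genes of imprinting and retroelement silencing were all at 0 in IgG, and their relation to Input differed. Zfp57, which keeps DNA methylation at imprinted loci, had counts of 15 and 10 in anti-m6A and 153 and 113 in Input. Zfp445, which acts with it in imprinting, had counts of 175 and 133 in anti-m6A and 773 and 705 in Input. In anti-m6A both were below Input, with log2 changes of -2.36 ± 0.52 (edgeR adjusted p = 0.0245) and -1.19 ± 0.33 (edgeR adjusted p = 0.0445). Without anti-m6A library 1 the edgeR adjusted p was 0.313 for Zfp57 and 0.358 for Zfp445, and without library 2 it was 0.392 and 0.411, the upper ends of ranges that began at 0.000298 and 1.25e-05 over 12 alternatives. Zfp445 was also lost with no count filter (edgeR adjusted p = 0.0587), and both calls were lost with the replicate block. Zfp809, which silences murine leukaemia virus in mouse embryonic stem cells, had counts of 73 and 77 in anti-m6A and 431 and 400 in Input, and its log2 change of -1.38 ± 0.42 missed the threshold (edgeR adjusted p = 0.0567). Zfp961 ran the other way, with 76 and 40 counts in anti-m6A and 0 in Input, at least 40.0-fold higher (edgeR adjusted p = 0.00739). Zfp932, a repressor of endogenous retroviruses, had counts of 2 and 0 in anti-m6A against 0 and 521 in Input, all but 2 of its counts from 1 library, and was not tested.

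Among 20 general regulators of transcription and chromatin, 17 exceeded IgG in anti-m6A (85.0%, beside 73.1 percent of all genes tested) and 0 were below it. Against Input, 2 were higher (10.0%, beside 28.0 percent) and 6 lower (6 of 20, beside 20.5 percent). The lower ones were Zfp143, Zfp148, Zfp281, Zfp335, Zfp532 and Zfp609, and the higher ones Zfp687 and Zfp110. Zfp335, a subunit of a histone H3K4 methyltransferase complex, had counts of 7 and 1 in anti-m6A, 0 in IgG, and 848 and 523 in Input. Its log2 change against Input was -6.39 ± 0.98 (edgeR adjusted p = 0.0101), called under all 12 alternatives. Of its 50-base stretches 20.3% also occur in other genes, so its reads could be split. The most frequent of these is Pcif1, which encodes the enzyme that methylates the adenosine next to the cap.

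Zfp143, which binds promoters and chromatin loop anchors, had 0 counts in anti-m6A and in IgG, and 96 and 87 in Input, at least 14.4-fold lower in anti-m6A than in Input (edgeR adjusted p = 0.0079). Zfp148, which binds GC-rich promoters, had counts of 46 and 33 in anti-m6A, 0 in IgG, and 569 and 330 in Input, and Zfp281, a regulator of pluripotency, had 28 and 12, 2 and 0, and 356 and 329. Their anti-m6A libraries lay below both Input libraries, with log2 changes of -2.47 ± 0.56 (edgeR adjusted p = 0.0267) and -3.06 ± 0.78 (edgeR adjusted p = 0.0259). Without anti-m6A library 1 the edgeR adjusted p was 0.0697 for Zfp143, 0.198 for Zfp148 and 0.143 for Zfp281, and without library 2 it was 0.0576, 0.231 and 0.246, with ranges over 12 alternatives that began at 1.74e-05, 1.17e-05 and 1.04e-08. Zfp609, a partner of the cohesin loader Nipbl, and Zfp110 also lost their calls against Input without anti-m6A library 1 or 2. Zfp687 and Zfp592, which in human cells share a Zmynd8 complex with the counterpart of Zfp532, differed from it. Zfp687 had counts of 50 and 34 in anti-m6A and 17 and 8 in Input, and Zfp592 had 32 and 20 in anti-m6A and 73 and 52 in Input. Zfp532, with 36.9% of its stretches shared with another gene, had counts of 65 and 45 in anti-m6A and 1101 and 700 in Input. Their log2 changes against Input were 2.75 ± 0.63 for Zfp687 (edgeR adjusted p = 0.0272), -0.22 ± 0.49 for Zfp592 (edgeR adjusted p = 0.743) and -2.99 ± 0.54 for Zfp532 (edgeR adjusted p = 0.00992), so partners of 1 complex lay above, near and below Input, a difference that was not tested between genes. Without anti-m6A library 1 the edgeR adjusted p was 0.284 for Zfp687 and 0.0686 for Zfp532, and without library 2 it was 0.261 and 0.0674, with ranges over 12 alternatives that began at 0.00349 and 5.00e-10. Zfp706, a regulator of embryonic stem cell differentiation and the second most counted Zfp gene, was at 592 ± 79.1 CPM in anti-m6A, 286 ± 20.0 CPM in IgG and 408 ± 101 CPM in Input (SD, n = 2 each), a log2 change of 1.05 ± 0.25 against IgG (edgeR adjusted p = 0.0107) and 0.54 ± 0.24 against Input (edgeR adjusted p = 0.126). Its call against IgG was lost with library totals as the scale (edgeR adjusted p = 0.0583) and without anti-m6A library 2 (edgeR adjusted p = 0.0817), and its adjusted p ranged from 3.57e-06 to 0.0817 over 13 alternatives.

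The genes with the largest excess over both other groups were at 0 in IgG and Input. They met the limit of 50 summed counts and the filter on low counts through anti-m6A alone. Their excess is therefore not separate from how they were chosen. Of all 11281 genes tested, 1387 had no Input count. Zfp286 (chromosome 11, 62751951 to 62789506, GRCm38) had counts of 567 and 581 in anti-m6A and none elsewhere, at least 85.1-fold higher than IgG and at least 409-fold higher than Input (edgeR adjusted p = 0.00135 and 0.00716). Zfp668 had 224 and 187 counts, Zfp87 137 and 109, and Zfp235 90 and 117, all in anti-m6A alone. Zfp820, Zfp524, Zfp41 and Zfp61 completed the 8, with 72 to 105 counts in each anti-m6A library. These 8 were at least 53.1-fold to 409-fold higher than Input by the limit of 3 counts per library. For Zfp524, 48.4% of its 50-base stretches also occur in another gene.

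Genes with counts in Input too gave folds against Input that do not rest on the limit of 3 counts per library. These folds still depend on the scaling of the libraries. Zfp560 had counts of 911 and 821 in anti-m6A, 0 in IgG, and 592 and 750 in Input. It was higher than Input by a log2 change of 1.47 ± 0.25 (edgeR adjusted p = 0.0133), and the call was lost without anti-m6A library 1 (edgeR adjusted p = 0.14) or 2 (edgeR adjusted p = 0.212), within 5.36e-07 to 0.212 over 12 alternatives. Zfp607b had counts of 574 and 564 in anti-m6A, 0 in IgG, and 143 and 112 in Input. All anti-m6A values of both genes lay above Input. For Zfp607b the log2 change was 3.23 ± 0.39 (edgeR adjusted p = 0.00716), and only leaving out anti-m6A library 2 lost the call (edgeR adjusted p = 0.0549, range 4.59e-10 to 0.0549 over 12 alternatives). Zfp950, whose linker sequence is printed above, had counts of 831 and 751 in anti-m6A, 0 in IgG, and 490 and 367 in Input, a log2 change against Input of 1.95 ± 0.36 (edgeR adjusted p = 0.0162), lost without anti-m6A library 1 (edgeR adjusted p = 0.0906) or 2 (edgeR adjusted p = 0.123) within 0.000683 to 0.123 over 12 alternatives.

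At the other end, 5 tested genes had counts in Input and none in anti-m6A or IgG: Zfp160, Zfp141, Zfp33b, Zfp143 and Zfp184. Zfp160 had 143 and 76 Input counts and Zfp184 69 and 46. In anti-m6A these were at least 17.6-fold and 9.16-fold lower (edgeR adjusted p = 0.0133 for Zfp160 and 0.0118 for Zfp184). Without anti-m6A library 1 the edgeR adjusted p was 0.0654 for Zfp160 and 0.0949 for Zfp184, and without library 2 it was 0.0521 and 0.0825. The DESeq2 test also lost Zfp160 (DESeq2 adjusted p = 0.108). Zfp623 had counts of 10 and 5 in anti-m6A, 0 in IgG, and 878 and 687 in Input. Zfp422 had counts of 118 and 86 in anti-m6A, 72 and 24 in IgG, and 1545 and 1574 in Input. Both were far lower in both eluates than in Input. Their log2 changes against Input in anti-m6A were -5.65 ± 0.55 for Zfp623 and -2.86 ± 0.38 for Zfp422 (edgeR adjusted p = 0.00716 for each). Zfp260, with 184 and 144 counts in anti-m6A, 0 in IgG, and 1401 and 3033 in Input, was lower by -2.63 ± 0.40 (edgeR adjusted p = 0.01), and missed the threshold without anti-m6A library 1 (edgeR adjusted p = 0.0558, range 1.48e-15 to 0.0558 over 12 alternatives).

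IgG beads held counts for 33 Zfp genes, and a few of these were higher there than in anti-m6A, some of them also than in Input. Zfp383 (chromosome 7, 29908280 to 29916813, GRCm38) had counts of 46 and 45 in anti-m6A, 1216 and 544 in IgG, and 0 in Input. Its log2 change for anti-m6A against IgG was -5.30 ± 0.34 (edgeR adjusted p = 0.000703), while it was at least 32.3-fold higher than Input in anti-m6A (edgeR adjusted p = 0.00716) and at least 1274-fold higher in IgG (edgeR adjusted p = 0.000516). It is among the 58 genes higher than Input but not among the 53 higher than both. Zfp825 had counts of 0 and 7 in anti-m6A, 940 and 155 in IgG, and 3 and 0 in Input, with 28.0% of its stretches shared with another gene. Zfp64 had counts of 201 and 163 in anti-m6A, 589 and 279 in IgG, and 414 and 306 in Input. Zfp948 had counts of 79 and 38 in anti-m6A, 551 and 198 in IgG, and 1295 and 1235 in Input. For each of the 3, both IgG libraries exceeded both anti-m6A libraries in CPM. Zfp948 was lower in anti-m6A than in IgG by -3.71 ± 0.45 (edgeR adjusted p = 0.00138) and than in Input by -3.39 ± 0.44 (edgeR adjusted p = 0.00716). Both calls were made under each of 13 alternatives. Its IgG libraries overlapped Input, with a log2 change of 0.32 ± 0.40 (edgeR adjusted p = 0.53). The IgG libraries are the shallowest, and the summed CPM of hepatocyte and blood markers was highest in them. Only 2 of the 7 blood markers were counted in each IgG library. Whether these Zfp counts share a source with those markers was not tested.

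**Figure D5:**
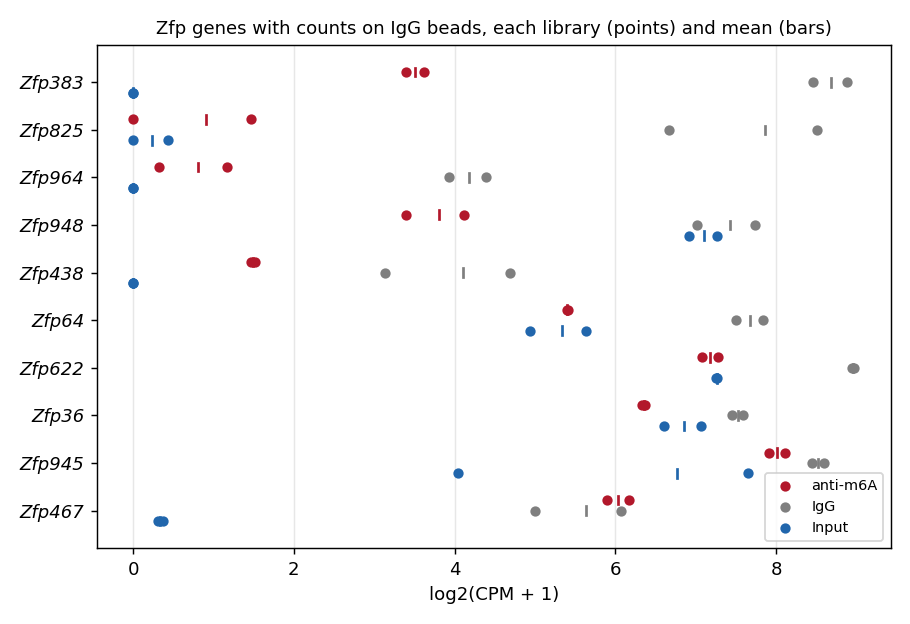
Level of 10 Zfp genes counted on IgG beads as log2(CPM + 1), with a point per library and a short bar at the mean of the 2 libraries; anti-m6A is red, IgG grey and Input blue, from top to bottom in each row. Zfp383, Zfp825, Zfp964 and Zfp438 are highest in IgG and at or near 0 in Input, and Zfp467 is high in both eluates.

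Zfp genes had few, long exons. The 215 tested coding Zfp genes had a median of 5 exons and a longest exon of 2513 bases, compared with 9 exons and 1230 bases in 10109 other coding genes tested. Their median coding length was 1728 bases compared with 1317, their 3' UTR 1191 bases compared with 893, and their transcript 3352 bases compared with 2831. The DRACH pattern was about as dense in both, at a median of 20.7 per kilobase of transcript in Zfp genes and 20.1 in the others. The number of C2H2 patterns ran from 0 to 34 with a median of 10, and 7 of the 222 matched genes had none. Across the 215 genes, Spearman's rho with the log2 change against Input was -0.17 for coding length, -0.14 for transcript length, -0.06 for C2H2 patterns and 0.07 for DRACH density. Over all 10324 coding genes tested it was -0.20, -0.20, -0.00 and -0.00. These describe genes that share libraries and are not independent replicates, and all are weak.

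A KRAB pattern was found in 98 of the 222 proteins translated from GENCODE M21, and in 0.574% of other coding genes tested. The pattern misses divergent boxes, such as that of Zfp445. Against Input, 36 of the 94 tested genes with the pattern were higher in anti-m6A (38.3%) and 22 lower (23.4%), with a median log2 change of 1.36. Of the 122 without it, 22 were higher and 29 lower (23.8%), with a median of -0.21. Over all genes tested, 28.0 percent were higher, 20.5 percent lower, and the median was 0.18. Genes with the pattern were also less abundant, with a median of 218.5 summed counts compared with 496.5, and 20 of them and 11 of the others had no Input count. Among genes with Input counts in both libraries the balance was reversed for genes with the pattern. Genes without it, which already leaned lower, leaned further that way. This limit is set on Input, a side of the ratio itself, and removes genes with no Input count, which could not be lower. A shift towards lower was therefore built in. Of 62 with the pattern, 11 were higher (17.7%) and 22 lower (35.5%), with a median of -1.09. Of 101 without it, 9 were higher (8.91%) and 29 lower (28.7%), with a median of -0.53. The shares over all genes tested above were taken without this limit. The difference between both sets, and the part of abundance in it, was not tested.

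Some Zfp transcripts share sequence with other genes. A median of 0.895% of a Zfp transcript's 50-base stretches occurred in another gene, 87 genes shared none and 38 shared over 20%. Against Input, 20 of 116 tested genes sharing under 1% were higher in anti-m6A (17.2%) and 30 lower (25.9%). Of 65 sharing 1% to 20%, 24 were higher (36.9%) and 14 lower (21.5%), and of 35 sharing over 20%, 14 were higher (40.0%) and 7 lower (20.0%), beside 28.0 and 20.5 percent of all genes tested. No difference between these classes was tested, nor the part of split reads in it. By position, chromosome 7 held most Zfp genes, 49, of which 16 of 48 tested were higher than Input (33.3%) and 7 lower (14.6%), beside the same background.

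The partners of KRAB zinc finger proteins are given for comparison. Of 28 tested genes of this silencing pathway, 23 exceeded IgG in anti-m6A (82.1%, beside 73.1 percent of all genes tested) and 0 were below it, and against Input 3 were higher (Cbx1, Mphosph8 and Smarcad1) and 9 lower (10.7% and 32.1%, beside 28.0 and 20.5 percent), with a median log2 change of -0.67 beside 0.18 over all genes tested. Of these 9 lower genes, all but Morc2a lost the call when an anti-m6A library was left out. For IgG against Input, 0 of the 28 were higher and 23 lower (82.1%), beside 9.89 and 61.5 percent of all genes tested. Trim28, the corepressor that KRAB domains bind, had counts of 280 and 252 in anti-m6A, 0 in IgG, and 1462 and 2051 in Input, a log2 change of -1.61 ± 0.27 against Input (edgeR adjusted p = 0.0122) that was lost without anti-m6A library 1 (edgeR adjusted p = 0.158) or 2 (edgeR adjusted p = 0.128). Setdb1, the methyltransferase it recruits, had counts of 57 and 48 in anti-m6A, 0 in IgG, and 329 and 244 in Input, and did not pass (log2 change -1.39 ± 0.48, edgeR adjusted p = 0.0783). Morc2a, which works with the HUSH complex, had counts of 6 and 1 in anti-m6A, 0 in IgG, and 555 and 748 in Input. Smarcad1, a chromatin remodeller, had counts of 95 and 86 in anti-m6A and 0 elsewhere. Cbx1, an HP1 protein, was called under 7 of 12 alternatives. It missed the threshold with DESeq2's size factors (edgeR adjusted p = 0.0606), with library totals (edgeR adjusted p = 0.089) and with the replicate block. Without anti-m6A library 1 or 2 it was lost too, and Mphosph8, a HUSH subunit, was lost without library 1. Morc2a and Smarcad1 thus sat at opposite ends of the list, and among its genes called against Input these 2 kept the call under every alternative in which they were tested.

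Other zinc finger families were taken by symbol with the same limit of 50 counts. Against Input, 3 of 23 tested Zbtb genes were higher in anti-m6A (13.0%) and 9 lower (39.1%), with a median log2 change of -1.79. Of 10 Zscan and Zkscan genes 3 were higher and 2 lower, and of 13 Klf genes 4 were higher (30.8%) and 0 lower, beside 28.0 and 20.5 percent of all genes tested. No difference between these families and the Zfp genes was tested.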

How the data were processed

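The deposited counts are whole reads per Entrez gene in 6 libraries, not normalized by the authors. Per the labels' protocols, poly(A) RNA was incubated with antibody-bearing beads, eluted with free m6A nucleotide and made into Smart-seq2 libraries, which carry no molecular identifiers and no strand, so overlapping and antisense genes cannot be told apart. Picard, featureCounts, edgeR 3.38.1 and mm10 are named per the submitters' processing notes; the aligner and the gene annotation were not stated there. Symbols came from RefSeq's GRCm38.p6 annotation, which named 25275 of 27179 genes and left 1904 unnamed. Sequence features came from GENCODE M21 (GRCm38), with C2H2 and KRAB patterns counted in its translated coding sequences in place of the RefSeq proteins first planned.

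Tests used edgeR 4.0.16 (R 4.3.3, limma 3.58.1): filterByExpr (minimum count 10, minimum total 15), TMM scaling, and 1 quasi-likelihood fit (glmQLFit, glmQLFTest) of 11281 genes over all 6 libraries with a mean per group, leaving 3 residual degrees of freedom, Benjamini-Hochberg adjustment over all genes tested, and a threshold of 0.05. A gene counted as above IgG and Input alike when its weaker one-sided result passed after adjustment. The SE of a log2 change was its absolute value over the square root of the quasi-likelihood F. It thus carries the spread of all 3 groups. The fit was also run on simulated data, for anti-m6A against Input only. That simulation did not set groups to 0 or give them unlike spreads, so it does not bear on calls of that kind. A fold against a group at 0 used 3 counts per library. Alternatives were DESeq2 1.42.0 and its size factors, library totals, other count filters, a replicate block, the 4 libraries compared, each library left out, and member limits of 20 and 200 counts. The members and gene lists were chosen with earlier results of these data known. Named genes were those on role and pathway lists, the 5 most counted, the 8 largest changes each way in each comparison, the 8 largest over both groups, the 8 highest in IgG, those nearest the limit, the highest with a group at 0 and up to 8 on the chromosome with most members. Zfp422 was named outside this rule after its values were seen, and the 4 printed sequences were picked by their linkers among genes off chromosome 18.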

Additional observations from a re-analysis of the deposited data

How the results depend on the processing

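The counts of Zfp genes called kept within 1.5 times under the other scalings, DESeq2, no count filter, the 4 libraries compared and a limit of 20 counts; the count above both groups has no value with DESeq2 or the 4 libraries. Requiring 10 counts in each library left 11 Zfp genes, of which 3 were higher and 4 lower in anti-m6A than in IgG, 1 higher and 3 lower than in Input, and 1 higher than both; for IgG against Input, 2 were higher and 4 lower. With a limit of 200 summed counts, 20 exceeded Input in anti-m6A, 17 exceeded both, and 5 were higher in IgG than in Input. Of all 8801 genes tested with such sums, 1776 exceeded Input in anti-m6A and 1339 exceeded both. Leaving out 1 library gave 30 to 91 higher and 5 to 73 lower in anti-m6A than in Input, 5 to 10 lower than in IgG, and 2 to 86 higher than both. The replicate block left 28 lower than Input and 0 higher than both in edgeR (smallest adjusted p 0.0643). Of all 11281 genes tested it left 1242 lower than Input, in place of 2308, and 0 higher than both. Calls against Input lost with this block include those of Zfp57, Zfp148, Zfp184, Zfp217, Zfp219, Zfp445, Zfp609, Zfp687 and Cbx1. The labels do not say whether same numbers mark a shared source, so pairing was not assumed. The deviations of same-numbered libraries correlated at 0.0997, 0.0859 and 0.0415 over 11281 genes. Both IgG libraries were at 0 for 8280 of these genes, so low correlations with IgG cannot decide whether the numbers pair libraries.

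DESeq2 size factors and library totals shifted the all-gene median of the log2 change against Input by -0.40 and -0.50. Relative to Input, Zfp genes were then 52 higher and 61 lower, and 50 and 64, and 58 and 74 with the DESeq2 test, in place of 58 and 52. Without IgG library 1, Zfp277 had no count in IgG or Input and its log2 change for IgG against Input became 0.00, whereas without IgG library 2 it was 5.23. The cause of the other changes was not tested. With 2 libraries a group and IgG at 1278735 to 2487148 counts, a gene at 0 there is only shown to be below about 1.16 to 1.94 CPM.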

Other observations

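Outside the comparisons, 92 genes with a Zfp symbol had 1 to 49 summed counts. Zfp3 and Zfp943, just under the limit, had 22 and 24 and 26 and 20 counts in anti-m6A and 0 in IgG and Input. Of the 7 Zfp genes that met the limit without being tested, Zfp389, Zfp758 and Zfp365 had counts in Input library 2 alone, with 214, 140 and 52, and Zfp446 had 4 and 0 counts in anti-m6A, 0 in IgG, and 7 and 593 in Input.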
